A study of Mus musculus with 20 samples.

Results

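The 36 genes described here are transcripts that are made in quantity by neurons and that code for the neuronal cytoskeleton, the synapse or neuronal RNA-binding and noncoding RNAs. They were taken by their symbols from the table of 24062 genes, and all 36 were found in it. The values come from RNA of a microglial fraction, isolated from 1 whole brain per male mouse of strain B6D2F1/J and sequenced as polyA RNA, with no pooling of mice. The mThy1-α-synuclein mice (genotype label HEM) carry human wild-type α-synuclein under the murine Thy-1 promoter, a promoter that acts mainly in neurons, with the transgene on the X chromosome, and the wild-type mice were their littermates without it. At 7 months 6 mThy1-α-synuclein and 4 wild-type mice were sequenced, and at 10 months 5 and 5. Further mice of every group but the 7-month mThy1-α-synuclein mice gave too little RNA to be sequenced, per the methods. No agent is named for either genotype. The methods name CD11b magnetic beads after removal of myelin debris and red cells, whereas the labels name IBA1, so the marker used for selection differs between the sources. The study asked how microglia differ between the genotypes at each age. Values are gene counts divided by a size factor for each mouse, called normalized counts here, and the factors were set separately at each age, so levels are compared between genotypes within an age. Factors recomputed over both ages differed from these by at most 4.07%. Because mice of an age were also processed together, age and processing cannot be told apart.

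Neurons carry long axons and dendrites that are held up by microtubules and neurofilaments. At the synapse, vesicles dock and fuse through SNARE proteins under the control of a calcium sensor, and glutamate or GABA then opens receptors that scaffold proteins and kinases hold in the opposite membrane. Microglia are the resident macrophages of the brain, are known to contact synapses and to take up neuronal debris, and are not known to build synapses of their own. The question addressed here is therefore how much of this neuronal set was present in the fraction, and whether it differed with genotype.

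Between 33404096 and 77806399 reads per mouse were counted on genes. All 16 microglial markers had at least 10 normalized counts in every mouse, and their summed level was between 2297740 and 2906520 in the 20 mice, against 4353 to 12869 for the 36 neuronal genes. Thy1, whose promoter drives the transgene, had 392 to 1298 normalized counts in mThy1-α-synuclein and 17.7 to 47.6 in wild-type mice at 7 months, and 1117 to 1741 against 9.41 to 32.4 at 10 months, so no mouse contradicted its genotype label. The table holds mouse genes, so the human transgene was not read directly. Nothing in the sources says that mice with the same number in different groups belong together.

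Of the 36 genes, 34 reached 10 normalized counts in at least 1 mouse, 20 did so in all 20 mice and 2 in none. Every mouse of the group reached 10 for 22 genes in 7-month mThy1-α-synuclein mice, 29 in 7-month wild-type mice, 25 in 10-month mThy1-α-synuclein mice and 23 in 10-month wild-type mice. A single mouse held 27 to 32, 31 to 34, 26 to 34 and 27 to 32 such genes, in the same order. The genes that did not reach 10 in any mouse were Grin1, the obligatory subunit of the NMDA-type glutamate receptor, with at most 4.26 normalized counts, and Grin2a, one of its regulatory subunits, with at most 6.72. Grin2a was at 0 in 16 of 20 mice and Grin1 in 13 of 20. The other NMDA receptor subunit of the set, Grin2b, lay at 13.3 to 224 normalized counts.

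The normalized counts of the set came mainly from a few genes. Averaged over the 20 mice, Meg3 (a long noncoding RNA of an imprinted locus) had 1345 normalized counts and made up 20.3% of the summed mean, Camk2b (a kinase subunit of the postsynaptic density) had 1109 and Dlg4 (the scaffold of that density) 897. These 3 genes gave 50.5% of the sum, and 10 genes had a mean of at least 100. These are shares of counts, which grow with transcript length, and levels of different genes are therefore set side by side per kilobase of exon. On that scale Camk2b, with 121.5 normalized counts per kb over 20 mice, and Olfm1, with 118, led, followed by Meg3 (74.4), Syp (73.0) and Dlg4 (67.7), while Map1b stood at 33.5, Snap25 at 22.0 and Gria2 at 4.37. The order changed with the group. Meg3 was second in 7-month wild-type mice (151.6 per kb) but stood at 33.2 in 7-month mThy1-α-synuclein mice, below Syp, Dlg4 and Camk2a, and in 10-month wild-type mice Olfm1 (126.3) lay above Camk2b (84.1). The median over the 36 genes was 5.41 normalized counts per kb in 7-month mThy1-α-synuclein mice, 13.4 in 7-month wild-type mice, 8.22 in 10-month mThy1-α-synuclein mice and 7.42 in 10-month wild-type mice. The median of all genes tested lay between 193 and 203 per kb in the 4 groups. Camk2b in 7-month wild-type mice (210.4 per kb) was the one gene of the set above it in any group.

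**Figure D1:**
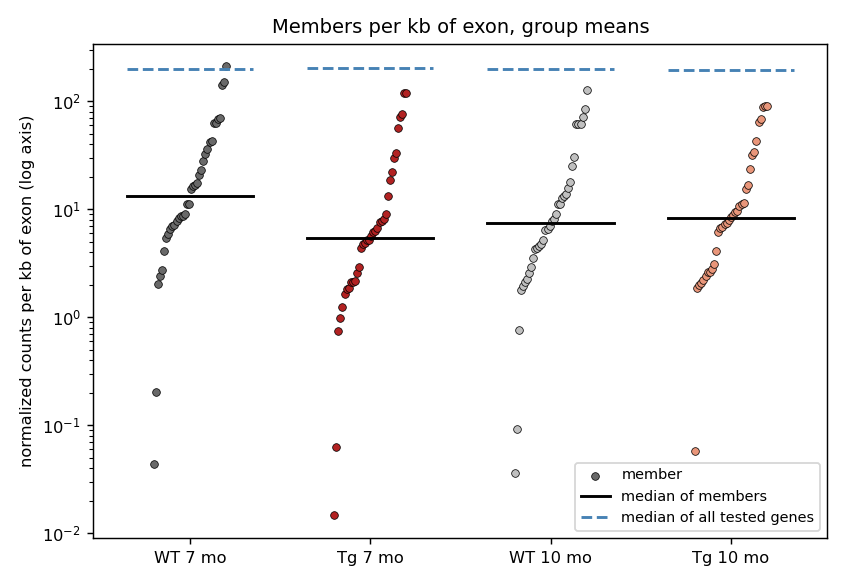
Group means of the 36 genes in normalized counts per kb of exon on a log axis, for wild-type (WT) and mThy1-α-synuclein (Tg) mice at 7 and 10 months. Each point is a gene sorted by level, solid lines mark the median of the set (5.41 to 13.4) and dashed lines the median of all tested genes (193 to 203). Grin2a in 10-month Tg mice was at 0 and is not drawn.

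At 7 months the set was lower in mThy1-α-synuclein than in wild-type mice. Its summed level was 4633 to 6259 normalized counts in the 6 mThy1-α-synuclein mice (median 5219) and 8849 to 12869 in the 4 wild-type mice, so the groups did not overlap, and the ratio of the means was 0.508. As a share of all normalized counts, the sum was 88.2 to 123 against 172 to 247 per 1000000. In bulk RNA, fewer neuronal cells or fragments in the fraction and less of each RNA per cell cannot be told apart. Without Meg3 the ratio was 0.611. At 10 months the sums overlapped, with 4494 to 6774 in mThy1-α-synuclein and 4353 to 7362 in wild-type mice and a ratio of 1.01. In the plot of summed levels, the 4 wild-type mice of 7 months lie above all 16 other mice for the cytoskeletal genes and for the receptor and postsynaptic genes, whereas for the RNA group wild-type replicate 3 of 10 months reached their range. For the genes of vesicle release 5 of the 16 other mice reached the lowest 7-month wild-type mouse, for the transmitter genes 6 and for the remaining genes 4. The ages were scaled apart, so positions across ages are a description only. Within 7 months the genotypes also overlapped for these genes. The highest mThy1-α-synuclein mice were at 845, 55.2 and 642 normalized counts, in that order, and the lowest wild-type mice at 732, 41.6 and 560.

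**Figure D2:**
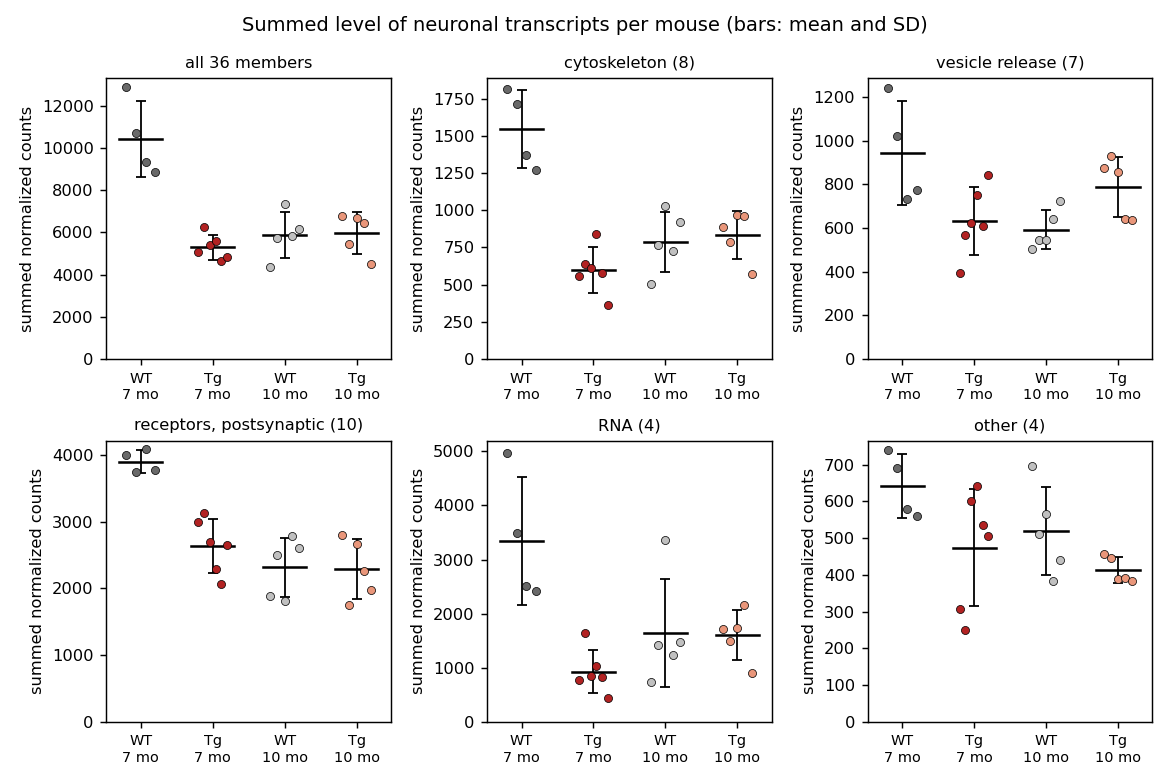
Summed normalized counts per mouse for the 36 genes and for 5 groups of them by role (number of genes in brackets), in wild-type (WT) and mThy1-α-synuclein (Tg) mice. Points are mice, lines are group means and bars SDs. For the whole set the 7-month WT mice lie at 8849 to 12869 and all other mice at 4353 to 7362.

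Gene by gene, 34 of the 36 passed the filter at 7 months (at least 10 normalized counts in at least 4 of the 10 mice), and 13 of these were lower in mThy1-α-synuclein mice by limma at an adjusted p under 0.05, with 0 higher. At an unadjusted p under 0.05, 20 of the 34 were lower and 0 higher, whereas 21.3% of all genes passed in either direction. Among all 13887 genes tested, 2.7% were called lower and 2.23% higher. The 36 genes were chosen with earlier results of these data known, so their counts here and below are a description. DESeq2 on the recovered reads called 17 lower and 0 higher, beside 4.09% and 3.76% of all genes. The log2 ratio of mThy1-α-synuclein over wild-type mice was negative in 31 of the 34 genes, with a median of -1.38 beside 0.00093 over all genes tested. In 16 of the 34 every mThy1-α-synuclein mouse lay below every wild-type mouse (3.97% of all genes), and in 0 above (3.55% of all genes). Nefh, Gap43 and Slc17a7 are among these 16, and they met the filter only with the wild-type mice, in which they were high. For 27 of the 34 genes at least 4 mThy1-α-synuclein mice had 10 or more, and of these 12 were called lower and 13 did not overlap. Over all 36 genes, the mean was lower in mThy1-α-synuclein mice in 32 and higher in 4. Of the 13 genes called, 6 (Map1b, Nefl, Nefm, Syt1, Nrxn3 and Grin2b) were called under every alternative tried, including the removal of any 1 mouse. The other 7 lost the call under at least 1 alternative. Wild-type replicate 1 carried the highest value of the 10 mice of this age for 21 of the 36 genes, and without it the number called was 6, against 8 without wild-type replicate 2.

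**Figure D3:**
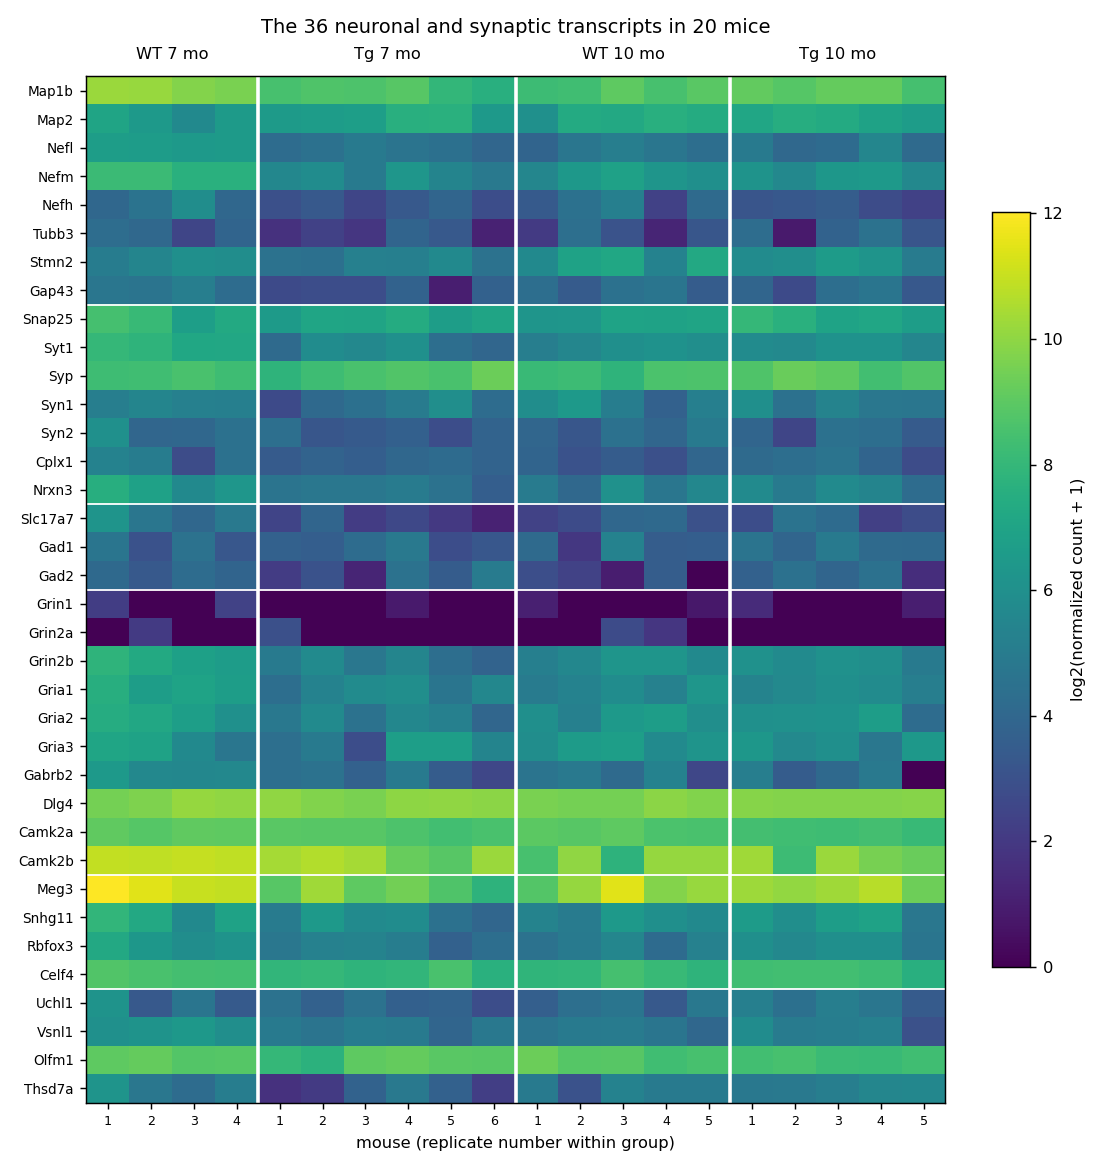
Levels of the 36 genes (from top to bottom, grouped by role) in 20 mice (columns, with the replicate number), as log2(normalized count + 1), for wild-type (WT) and mThy1-α-synuclein (Tg) mice at 7 and 10 months. The 7-month WT columns are the brightest for Map1b, Nefl, Nefm, Syt1 and Grin2b, and Grin1 and Grin2a are dark throughout.

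Among the 8 cytoskeletal and axonal genes, 3 were lower at 7 months. Nefm, the medium neurofilament chain (chr14:68082590-68124846 in GRCm38), had 289, 292, 195 and 199 normalized counts in the wild-type mice and 27.9 to 78.2 (median 43.8) in the mThy1-α-synuclein mice. All 6 transgenic mice lay below the lowest wild-type mouse by a factor of more than 2, and limma gave a log2 ratio of -2.43 with a standard error of 0.30, adjusted p = 0.000945. Nefl, the light neurofilament chain (chr14:68083863-68089095), had 102, 98.8, 87.4 and 92.6 in wild-type mice against 14.5 to 28.6 (median 20.9) (log2 ratio of -2.15 with a standard error of 0.30, adjusted p = 0.00183 by limma). Nefl and Nefm lie on opposite strands and share 1108 exon bases in the annotation, and since the strand setting of the counting is not stated, reads in that stretch cannot be assigned to either gene. Map1b, a microtubule-associated protein of growing axons (chr13:99421446-99516540), had 1203, 1133, 879.8 and 783 in wild-type and 193 to 478 (median 380.4) in mThy1-α-synuclein mice. Here too the groups were apart (log2 ratio of -1.56 with a standard error of 0.24, adjusted p = 0.00395 by limma).

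The remaining cytoskeletal genes did not pass by limma at 7 months, though DESeq2 called Nefh and Gap43 lower (adjusted p = 0.0496 and 0.0463 by DESeq2). Nefh, the heavy neurofilament chain, had 15.3, 22.9, 59.0 and 14.9 in wild-type and 4.77 to 14.2 (median 7.95) in mThy1-α-synuclein mice (adjusted p = 0.128), and Gap43, a growth cone protein, 25.2, 23.9, 34.2 and 18.1 against 1.02 to 12.7 (median 6.13) (adjusted p = 0.0866 by limma). For both genes the groups did not overlap, at levels near the limit of 10. Tubb3, the neuronal β-tubulin, was at 4.72 to 18.9 against 1.21 to 13.6. Stmn2, a microtubule regulator of axons, was at 32.4 to 62.6 against 20.4 to 51.8 with a log2 ratio of -0.66 (adjusted p = 0.312 by limma). Map2, the microtubule-associated protein of dendrites, went the other way in its mean, with 128 ± 49.4 (SD, n = 6) in mThy1-α-synuclein and 89.4 ± 31.2 (SD, n = 4) in wild-type mice and a log2 ratio of 0.50 (adjusted p = 0.362 by limma).

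Of the 7 genes of vesicle release and presynaptic adhesion, 2 were lower at 7 months. Syt1, the calcium sensor of vesicle fusion (chr10:108497650-109010982), had 253, 221, 143 and 147 normalized counts in wild-type mice and 14.5 to 65.4 (median 33.8) in mThy1-α-synuclein mice. Within the transgenic group replicates 1, 5 and 6 lay at 14.5 to 19.3 and the other 3 at 48.4 to 65.4, all below the wild-type mice (log2 ratio of -2.55 with a standard error of 0.43, adjusted p = 0.00372 by limma). Nrxn3, a presynaptic adhesion protein that binds partners across the cleft (chr12:88722876-90334935), had 184, 116, 52.0 and 79.8 against 10.9 to 30.6 (median 24.7) (log2 ratio of -2.08 with a standard error of 0.39, adjusted p = 0.00645 by limma). Wild-type replicate 1 was the highest for both genes. Snap25, the SNARE protein of the plasma membrane, had 352, 275, 105 and 156 in wild-type mice and 94.1 to 169 (median 128) in mThy1-α-synuclein mice. Its wild-type replicates 1 and 2 were high and the other 2 lay within the transgenic range, and it did not pass (log2 ratio -0.68, adjusted p = 0.197 by limma).

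Syp, an integral protein of the vesicle membrane, was not called at 7 months. It had 314, 320.3, 374 and 312 normalized counts in wild-type mice and 225 to 646 (median 380.2) in mThy1-α-synuclein mice, a log2 ratio of 0.19 (standard error 0.22, adjusted p = 0.655 by limma). The transgenic mice lay on both sides of the wild-type mice. Syn1 and Syn2, which tether vesicles to the cytoskeleton, were at 34.2 to 42.6 against 5.60 to 59.9 and at 14.6 to 64.7 against 6.09 to 20.2, with adjusted p of 0.361 and 0.262 by limma. Cplx1, a clamp on the SNARE complex, was at 5.90 to 39.5 against 10.1 to 17.3 (adjusted p = 0.549 by limma).

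The 3 genes that mark the transmitter were close to the limit of detection. Slc17a7, the vesicular glutamate transporter of cortical neurons (chr7:45163949-45176142), had 74.6, 25.0, 15.4 and 27.7 normalized counts in wild-type and 1.21 to 14.3 (median 3.94) in mThy1-α-synuclein mice at 7 months (log2 ratio of -2.57 with a standard error of 0.65, adjusted p = 0.0326 by limma). It passed the filter through the wild-type mice, where it was higher, and the call was lost on leaving out any 1 of 5 mice (adjusted p up to 0.149, without wild-type replicate 1). Gad1 and Gad2, the enzymes of GABA synthesis, were at 7.28 to 24.3 against 6.09 to 28.0 and at 9.36 to 17.7 against 1.36 to 31.5, and neither passed (adjusted p = 0.925 and 0.632 by limma).

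Of the 10 receptor and postsynaptic genes, 8 were tested at 7 months and 4 were lower. Grin2b (chr6:135713233-136173511), a regulatory NMDA receptor subunit, had 224, 155, 112 and 99.0 normalized counts in wild-type and 13.3 to 53.1 (median 27.8) in mThy1-α-synuclein mice (log2 ratio of -2.29 with a standard error of 0.38, adjusted p = 0.00347 by limma). Gria1 (chr11:57011387-57330244) and Gria2 (chr3:80681450-80802835) are subunits of the AMPA-type glutamate receptor, which carries most fast excitation. Gria1 had 182, 101, 124 and 101 against 19.0 to 61.2 (median 42.9) (log2 ratio of -1.68 with a standard error of 0.35, adjusted p = 0.0116 by limma). Gria2, the subunit that limits calcium entry, had 173, 145, 106 and 64.9 against 14.5 to 53.1 (median 31.7) (log2 ratio of -1.88 with a standard error of 0.39, adjusted p = 0.0113 by limma). In all 3 genes wild-type replicate 1 was highest and no transgenic mouse reached the wild-type range, and without that mouse the adjusted p by limma was 0.0659 for Gria1 and 0.0647 for Gria2. The remaining AMPA receptor subunit, Gria3, was at 133, 121, 50.8 and 25.5 in wild-type and 6.13 to 106 (median 35.5) in mThy1-α-synuclein mice, with overlapping groups (adjusted p = 0.527 by limma).

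Gabrb2 (chr11:42419757-42629028), a subunit of the GABA-gated chloride channel, had 86.3, 47.8, 46.1 and 47.9 in wild-type and 4.85 to 28.9 (median 16.2) in mThy1-α-synuclein mice at 7 months (log2 ratio of -1.87 with a standard error of 0.48, adjusted p = 0.0337 by limma). Its call was lost on leaving out any 1 of 6 mice, at an adjusted p of up to 0.137. The other 3 postsynaptic genes had the highest levels of the group per kb. Dlg4 had 725, 834, 1099 and 1039 in wild-type and 765 to 1052 (median 981) in mThy1-α-synuclein mice, a log2 ratio of 0.04 with a standard error of 0.13 (adjusted p = 0.89 by limma). Camk2a, the other main subunit of the calcium- and calmodulin-dependent kinase, had 543, 454, 537 and 526 against 337 to 495 (median 438) (log2 ratio -0.28, adjusted p = 0.235 by limma). Camk2b had 1926, 1878, 2014 and 1863 against 474 to 1612 (median 1257), so that the groups did not overlap, but the transgenic mice were widely spread and the test was not passed (log2 ratio -0.95, adjusted p = 0.166 by limma).

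Promoter sequence was at hand for 24 of the 36 genes, as 250 bases before to 50 bases after the start sites given by RefSeq (GRCm38.p6). It was searched on both strands for letters of the element bound by REST, the repressor that silences many neuronal genes outside neurons. The spaced element AGCACCNNGGACAG was held by 17 of all 32851 promoters (0.0517%), those of Gria2 and Gad2 among them. TTCAGCACC, the left part of the element, which shares its last 6 letters with the first 6 of the spaced form, was held by 122 promoters (0.371%), Syn1 among them. Gria2 was lower at 7 months whereas Gad2 and Syn1 did not pass, so the sequences are shown for genes with different outcomes, each 5′ to 3′ on the strand of its gene with the matching letters in capitals. The windows are chr3:80802932-80803065 (minus strand) for Gria2, where the match begins 170 bases before the start site and reads on the opposite strand, chr2:22622104-22622237 (plus strand) for Gad2, where it begins 163 bases before, and chrX:20921082-20921168 (minus strand) for Syn1, where it begins 232 bases before.
Gria2: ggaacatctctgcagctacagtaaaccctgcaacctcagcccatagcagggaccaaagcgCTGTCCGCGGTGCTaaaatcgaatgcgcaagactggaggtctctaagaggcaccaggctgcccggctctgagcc
Gad2: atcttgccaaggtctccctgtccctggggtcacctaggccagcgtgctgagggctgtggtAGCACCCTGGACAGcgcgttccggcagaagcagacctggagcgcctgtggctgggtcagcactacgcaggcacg
Syn1: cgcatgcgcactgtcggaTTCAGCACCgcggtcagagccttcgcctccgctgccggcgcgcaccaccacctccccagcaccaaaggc
A match of letters is a description of these windows, and binding was not measured.

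All 4 genes of the RNA group had negative log2 ratios at 7 months, 2 passed by limma and all 4 by DESeq2. Meg3 (chr12:109541001-109571726) had 4147, 2873, 2047 and 1902 normalized counts in wild-type mice and 214 to 1258 (median 499) in mThy1-α-synuclein mice (log2 ratio of -2.32 with a standard error of 0.46, adjusted p = 0.028 by limma). The highest transgenic mouse, replicate 2 at 1258, stayed under the lowest wild-type mouse at 1902. The call for Meg3 was lost on leaving out any 1 of 6 mice, with an adjusted p of up to 0.0907 without wild-type replicate 1. Rbfox3 (chr11:118489762-118911597), the splicing factor known as the neuronal nuclear antigen, had 152, 80.1, 57.9 and 70.2 against 12.2 to 40.9 (median 29.4) (log2 ratio of -1.65 with a standard error of 0.39, adjusted p = 0.0254 by limma, adjusted p = 0.119 without wild-type replicate 1). Snhg11, a host gene of small nucleolar RNAs that is typed as protein-coding in GENCODE M21, had 240.0, 149.7, 52.0 and 121 against 14.5 to 89.8 (median 41.9) (log2 ratio -1.69, adjusted p = 0.0741 by limma and 0.00644 by DESeq2). Celf4, a neuronal RNA-binding protein, had 424, 381, 348 and 329 against 195 to 377 (median 238) (log2 ratio -0.56, adjusted p = 0.073 by limma and 0.0414 by DESeq2). For Snhg11 wild-type replicate 3 lay within the transgenic range, and for Celf4 mThy1-α-synuclein replicate 5 lay within the wild-type range.

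Of the 4 remaining genes, Vsnl1 alone was called at 7 months. Vsnl1, a neuronal calcium sensor (chr12:11325242-11436613), had 63.8, 70.7, 85.0 and 60.7 in wild-type and 14.2 to 32.0 (median 27.8) in mThy1-α-synuclein mice (log2 ratio of -1.44 with a standard error of 0.32, adjusted p = 0.0179 by limma). Its call was lost on leaving out wild-type replicate 1, 2 or 3, and the adjusted p was 0.0646 without wild-type replicate 3. Uchl1, an abundant neuronal deubiquitinating enzyme, was at 9.36 to 71.0 against 6.06 to 22.5, Olfm1, a secreted glycoprotein of neurons, at 451 to 584 against 212 to 573, and Thsd7a, a membrane protein with thrombospondin repeats, at 17.7 to 74.6 against 2.24 to 28.0. None of the 3 passed (adjusted p = 0.636, 0.51 and 0.0954 by limma).

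**Figure D4:**
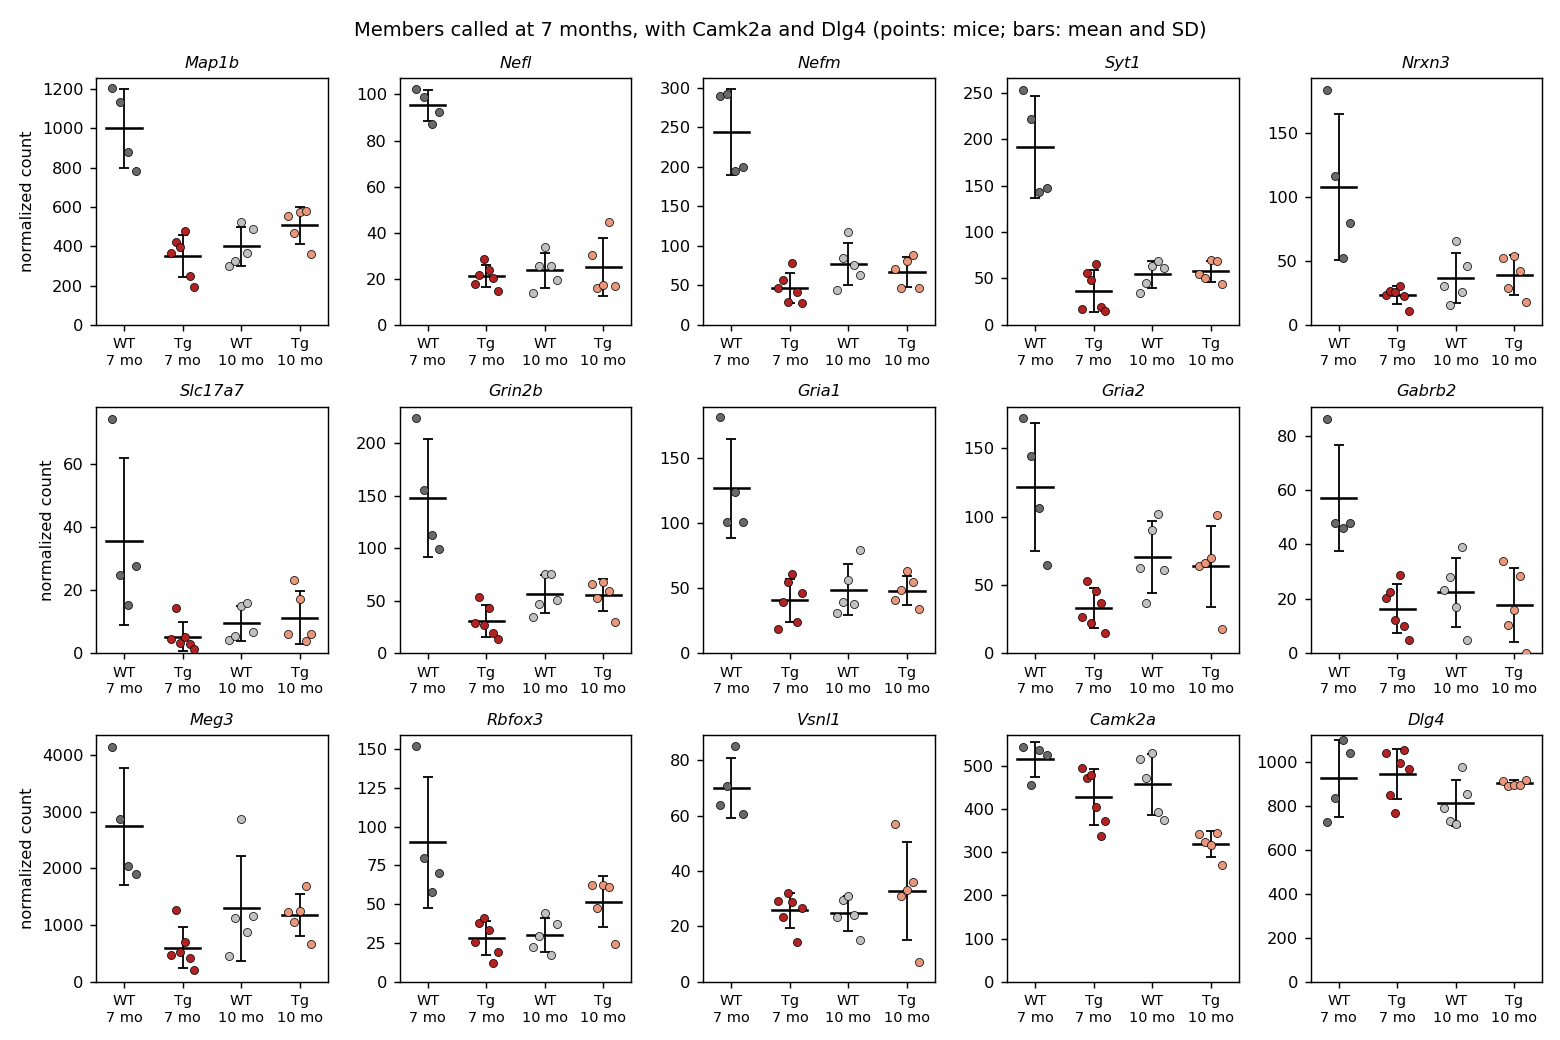
Normalized counts per mouse for the 13 genes called at 7 months and for Camk2a and Dlg4, in wild-type (WT) and mThy1-α-synuclein (Tg) mice at 7 and 10 months. Points are mice, lines are means and bars SDs. For the 13 genes every 7-month WT mouse lies above every 7-month Tg mouse, whereas at 10 months the genotypes overlap, and Camk2a is lower in 10-month Tg mice.

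At 10 months 31 of the 36 genes passed the filter (at least 10 in at least 5 mice), Grin1, Grin2a, Nefh, Tubb3 and Slc17a7 being too low. By limma 1 gene was lower in mThy1-α-synuclein mice and 0 were higher, beside 3.79% and 3.88% of all 13627 genes, and 4 of the 31 had an unadjusted p under 0.05, as did 23.5% of all genes. DESeq2 on the recovered reads called 2 lower and 1 higher, beside 6.11% and 5.94%. The median log2 ratio was 0.10, and 12 of 31 values were negative. The gene called was Camk2a, with 516, 473, 529.6, 392 and 375 normalized counts in wild-type and 342, 323, 316, 344 and 269.9 in mThy1-α-synuclein mice. All 5 transgenic mice lay below the lowest wild-type mouse, the one gene of the set without overlap at this age (3.49% of all genes were lower and 3.78% higher without overlap), and limma gave a log2 ratio of -0.51 with a standard error of 0.13, adjusted p = 0.0285. The call was lost on leaving out any 1 of 5 mice (adjusted p up to 0.0682, without mThy1-α-synuclein replicate 5). The log2 ratio of Camk2a was -0.28 at 7 months, and the difference between the ages did not pass (adjusted p = 0.488 by limma).

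Other genes came near the threshold at 10 months in either direction. Syp had 279, 301, 227, 391 and 404 in wild-type and 419, 610.3, 521, 335 and 431 in mThy1-α-synuclein mice (log2 ratio 0.53, adjusted p = 0.0904 by limma and 0.0412 by DESeq2). Olfm1 had 632, 455, 469, 321 and 367 against 337, 366, 288, 285 and 320.1 (log2 ratio -0.46, adjusted p = 0.101 by limma and 0.0384 by DESeq2). Snap25 had 75.2, 78.8, 124, 121 and 131 against 254, 194, 124, 135 and 103 (log2 ratio 0.57, adjusted p = 0.198 by limma). In all 3 genes the genotypes overlapped in at least 1 mouse. Dlg4 was nearly constant in the 10-month transgenic mice, at 914, 888, 896, 895 and 917, against 788, 732, 718, 976 and 851 in wild-type mice (log2 ratio 0.16, adjusted p = 0.317 by limma).

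The genes that were lower at 7 months overlapped between the genotypes at 10 months. Nefm had 44.5, 84.4, 117, 75.3 and 62.9 in wild-type and 70.3, 47.1, 80.3, 87.7 and 47.2 in mThy1-α-synuclein mice (log2 ratio -0.18, standard error 0.29). Syt1 had 33.9, 45.0, 63.1, 68.5 and 60.8 against 54.3, 50.3, 69.6, 69.2 and 44.1 (log2 ratio 0.10, standard error 0.27). Grin2b had 34.9, 46.4, 75.4, 75.3 and 50.5 against 65.8, 52.7, 67.4, 59.4 and 30.1 (log2 ratio -0.03, standard error 0.30). For these genes the 10-month mice of both genotypes lay at levels nearer to those of the 7-month transgenic mice than to those of the 7-month wild-type mice, though the ages were scaled apart. Meg3 had 448, 1116, 2869, 876 and 1153 in wild-type and 1232, 1061, 1245, 1681 and 658 in mThy1-α-synuclein mice, wild-type replicate 3 standing above all other mice of its age. That mouse held the highest value of the 10-month wild-type group for Nefl, Nefm, Nrxn3, Grin2b and Snhg11 as well.

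**Figure D5:**
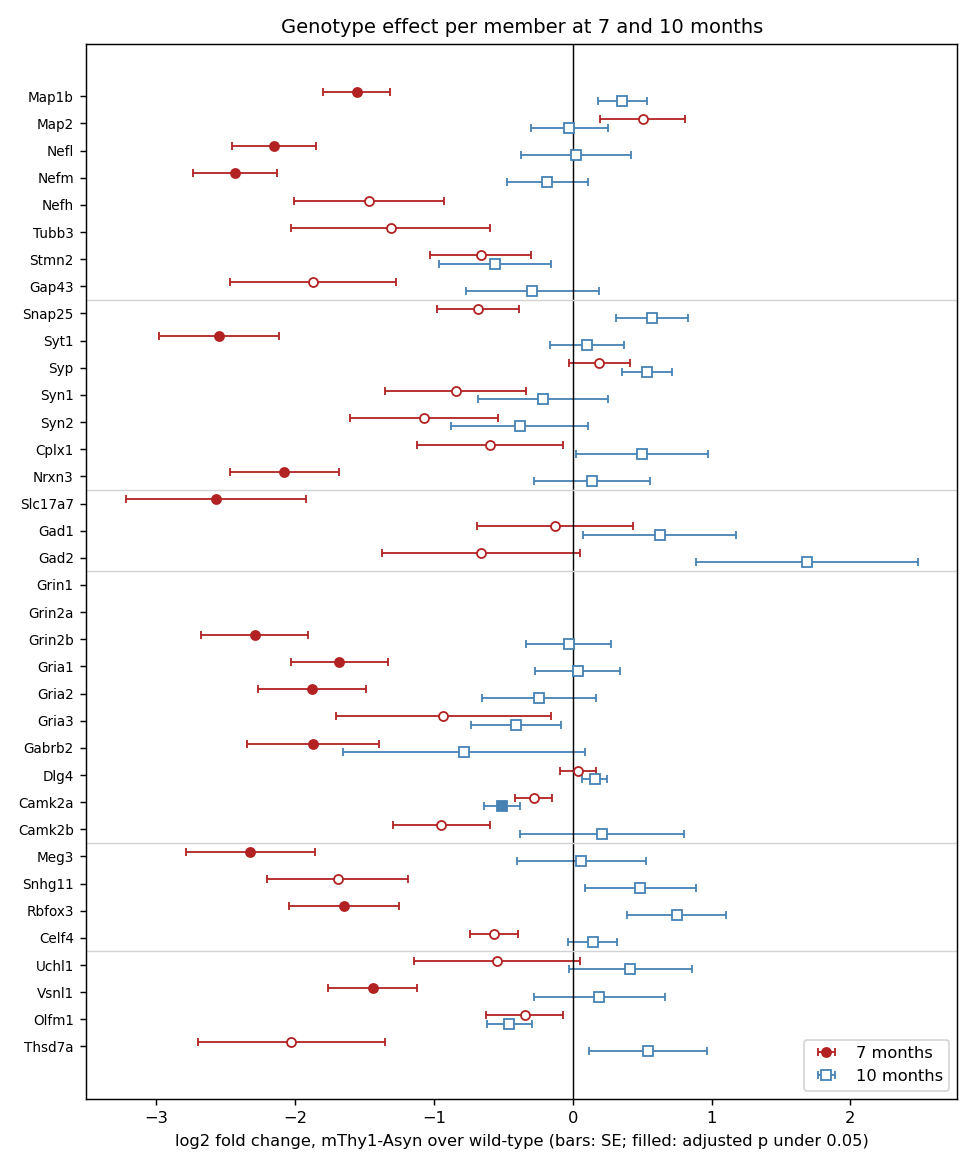
Log2 ratio of mThy1-α-synuclein over wild-type mice for each gene tested, at 7 months (circles) and 10 months (squares), with the standard error of the limma fit as bars. Filled symbols have an adjusted p under 0.05. At 7 months 31 of 34 values are below 0 and 13 are filled, and at 10 months 12 of 31 are below 0 and Camk2a alone is filled.

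The difference between the ages was tested in 1 fit of all 20 mice, by subtracting the 7-month ratio of the genotypes from the 10-month ratio. Among 34 genes tested, 9 had a higher log2 ratio at 10 months by limma and 0 a lower one, beside 3.87% and 2.73% of all 14030 genes. Higher is meant with its sign: the log2 ratio of Syt1 was -2.55 at 7 months and 0.10 at 10 months. DESeq2 called 15 higher and 0 lower, beside 5.26% and 3.97%. At an unadjusted p under 0.05, 18 of the 34 were higher and 0 lower, as were 22.2% of all genes in either direction. The 9 genes called by limma were Syt1 (difference 2.65 on the log2 scale, standard error 0.52, adjusted p = 0.00481), Rbfox3 (2.39), Meg3 (2.39), Grin2b (2.26), Nefm (2.25), Nrxn3 (2.21), Nefl (2.17), Map1b (1.92) and Gria1 (1.72). Map1b, Nefm, Syt1 and Grin2b were called under every alternative tried. The difference for Meg3 had the highest adjusted p of the 9, 0.0433 by limma and 0.0761 by edgeR, and it was called under 11 of 30 alternatives, with an adjusted p of up to 0.153. Slc17a7, Gria2, Gabrb2 and Vsnl1, which were lower at 7 months, did not pass for the difference (adjusted p = 0.061, 0.0975, 0.579 and 0.0864 by limma). The number called was 6 without wild-type replicate 1 of 7 months and 14 without mThy1-α-synuclein replicate 5 of 10 months.

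Mice differed along the set as well as groups did. Among the 10 mice of 7 months, mThy1-α-synuclein replicate 6 held the lowest value for 14 of the 36 genes, and among those of 10 months wild-type replicate 3 held the highest value for 10 and mThy1-α-synuclein replicate 5 the lowest for 10. With the 4 group means removed, the 465 pairs among the 31 genes tested at both ages had a median correlation of 0.24 across the 20 mice, and 82 pairs were above 0.5 and 3 below -0.5. The pairs share the libraries and their size factors. Nrxn3, Rbfox3, Snhg11 and Grin2b had the highest median correlation with the other 30 genes (0.47, 0.46, 0.43 and 0.43), and Dlg4 (-0.18), Syp (-0.13) and Olfm1 (-0.05) the lowest. 

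Other neuronal genes, from lists of further presynaptic, postsynaptic, cytoskeletal and channel genes, gave more lower than higher calls at 7 months. These lists were chosen with earlier results of these data known, so their counts are a description. They stand beside 2.7% of all genes called lower and 2.23% higher. Among 27 presynaptic genes tested, 3 were lower and 0 higher, with a median log2 ratio of -0.68. The lower ones included the vesicle GTPase Rab3c (log2 ratio -2.25) and the calcium sensor Syt7 (-1.54). Among 24 postsynaptic genes 4 were lower and 0 higher (median -1.18), the scaffolds Homer2 and Dlgap1 and the GABA receptor subunit Gabrb1 among the lower ones. Among 20 cytoskeletal genes 6 were lower and 2 higher (median -0.83). The lower ones included Map1a, with 66.3 ± 26.1 (SD, n = 6) against 269.6 ± 84.8 (SD, n = 4) normalized counts (log2 ratio of -2.04 with a standard error of 0.29, adjusted p = 0.00183 by limma), and Mapt, which codes for tau (-1.27). The 2 higher ones were the tubulins Tubb2a, with 1003 ± 333 (SD, n = 6) against 400.0 ± 45.3 (SD, n = 4), and Tubb2b, with 1204 ± 500.4 (SD, n = 6) against 236 ± 49.2 (SD, n = 4). Of 12 channel genes 3 were lower and 0 higher, Scn8a, Kcna1 and Kcna2, which code for channels of the axon.

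Lists for particular neurons held few tested genes. Of all genes tested at 7 months, limma called 2.7% lower and 2.23% higher, and 21.3% had an unadjusted p under 0.05 in either direction. None of 6 interneuron and 4 cerebellar genes passed at 7 months in either direction by limma or DESeq2 (1 and 3 were lower at an unadjusted p under 0.05), and of 5 striatal genes Pde10a was higher. Among 13 neuronal RNA regulators Elavl3 was lower (-1.75) and Rbfox1 higher, with 366 ± 80.3 (SD, n = 6) against 154 ± 23.6 (SD, n = 4) normalized counts (log2 ratio of 1.22 with a standard error of 0.19, adjusted p = 0.00248 by limma). At 10 months Sv2a, Syngr1 and Nrxn2 among 29 presynaptic genes were higher and 0 lower, beside 3.88% and 3.79% of all genes. Homer2 was lower at both ages (-1.69 and -1.32, adjusted p = 0.0337 and 0.029 by limma), and Rbfox1 higher at both (1.79 at 10 months, adjusted p = 0.00103 by limma).

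Among markers of other brain cells, those of astrocytes were called lower most often at 7 months, and the other lists gave fewer calls or none. Of all genes tested at 7 months, 2.7% were called lower and 2.23% higher. Of 19 astrocyte markers tested at 7 months, 9 were lower and 1 was higher with the transgene (median log2 ratio -1.35). For the difference between the ages 9 of 19 were called higher and 0 lower, beside 3.87% and 2.73% of all genes tested for it. All 19 had at least 10 normalized counts in every 7-month wild-type mouse and 16 in every mThy1-α-synuclein mouse, and no astrocyte marker was at 0 in every mouse. The summed level of all 19 overlapped at 7 months, at 106991 to 144685 in mThy1-α-synuclein and 113649 to 135001 in wild-type mice. At 10 months it was 94664 to 146943 against 83299 to 104120. Glul gave most of these totals. Without Glul the summed astrocyte level was 11830 to 14999 in mThy1-α-synuclein and 18118 to 24413 in wild-type mice at 7 months, and 13951 to 15947 against 12654 to 15954 at 10 months. Of 15 oligodendrocyte markers 3 were lower, Mbp and Mobp among them, and 0 higher at 7 months, with a median log2 ratio of -0.49. At an unadjusted p under 0.05 by limma, 7 of the 15 were lower and 0 higher, beside 21.3% of all genes in either direction. The summed oligodendrocyte level at 7 months was 102116 to 128881 against 111735 to 134670, and without Trf it was 9437 to 17448 against 15707 to 21863. The genotypes overlapped in both sums. Of 11 endothelial markers 2 were lower (Cldn5 and Pecam1) and 0 higher, with a median log2 ratio of -0.60. At an unadjusted p under 0.05 by limma, 7 of the 11 were lower and 1 higher. Of 7 mural cell markers 1 (Vtn) was lower and 0 higher. Markers of oligodendrocyte precursors (6 tested) and of ependyma and choroid plexus (5 tested) gave 0 calls by limma and by DESeq2 at 7 months, with 1 gene of each list lower at an unadjusted p under 0.05. The part of carry-over of RNA from other cells in the neuronal result was not tested.

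Few markers of immune cells were called at 7 months, when 2.7% of all genes tested were called lower and 2.23% higher. At 10 months these shares were 3.79% and 3.88%. Of 16 microglial markers tested at 7 months, 0 were lower and 1 (Gpr34) was higher, with a median log2 ratio of 0.09, and at 10 months 4 (Cx3cr1, Sall1, Siglech and Itgam) were higher and 0 lower. Of 8 border macrophage markers 0 were called by limma at 7 months (1 higher by DESeq2 and 1 higher at an unadjusted p under 0.05), and 4 were lower at 10 months. Neutrophil and lymphocyte markers gave 0 calls of 7 and of 5 tested at 7 months by limma or DESeq2, and 0 at an unadjusted p under 0.05, and 1 of 7 and 1 of 4 were lower at 10 months by limma. DESeq2 at 10 months called 5 of 8 border macrophage, 3 of 7 neutrophil and 1 of 4 lymphocyte markers lower, beside 6.11% of all genes. It called 4 of 16 microglial markers higher, beside 5.94%. At an unadjusted p under 0.05, 7, 4 and 1 were lower in that order. Of the microglial markers 5 were higher and 1 lower by that rule, which 23.5% of all genes passed in either direction.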

How the data were processed

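RNA of 20 mice was analysed. Per the labels and the study's methods, the authors trimmed reads with Trim Galore 0.6.7, mapped them to mm10 with HISAT2 2.2.1, assigned them to genes with featureCounts and deposited signal values, which are the gene counts after division by DESeq2 1.44.0 size factors, 1 column per mouse. The annotation release, strand setting and treatment of multiply mapped reads are not given in the sources used here. Values of each mouse were whole multiples of 1 step (tolerance 0.01 reads, 100% of low values), which gave back whole reads. In the 10-month group, the step of mThy1-α-synuclein replicate 5 was too close to 1 for this check. The step equalled the reciprocal of the size factor recomputed within each age.

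Genotypes were compared within an age, and the difference between ages in 1 fit of 4 groups, with limma 3.58.1 in R 4.3.3 (moderated test with trend and robust estimation) on log2(value + 1), so fold changes of low genes are understated. Genes entered a fit with values of 10 or more in 4 of the 10 mice at 7 months and 5 of 10 at 10 months, or with either in the joint fit. p-values were two-sided and adjusted over all genes tested by Benjamini-Hochberg, with a threshold of 0.05. The 36 genes and all other lists were chosen with earlier results of these data known, so their counts are a description. All 36 genes could be named. From the other lists the text names genes called at an age and those of highest mean, and in addition the genes most like the set by correlation. Alternatives were pseudocounts of 0.5 and 5, no filter, a filter at 50, edgeR 4.0.16 and DESeq2 1.42.0 on recovered reads, TMM and total-read scaling, quality weights, the replicate number as a block and the removal of each mouse. Scripts were tested on simulated data. Gene positions and exon lengths are from GENCODE M21 (GRCm38), and exon lengths matched 94.5% of genes. p-values measure the spread between single mice. Results for some listed genes are not reported here.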

Additional observations from a re-analysis of the deposited data

Results flagged for a closer look

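Dixon's test was applied to 134 sets of values, each of a gene or of the summed genes in a group. It singled out 6, near the share of about 1 in 20 that chance gives. The values that stood apart were Slc17a7 in mThy1-α-synuclein replicate 2 (14.3 normalized counts) and Celf4 in mThy1-α-synuclein replicate 5 (377) at 7 months, Syp in wild-type replicate 3 (374), Syn2 (64.7) and Gabrb2 (86.3) in wild-type replicate 1 at 7 months, and Celf4 in mThy1-α-synuclein replicate 5 at 10 months (189).

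The genotype effect differed between the ages by limma's interaction term in 9 genes. The effect at 10 months minus that at 7 months was 1.92 for Map1b, 2.17 for Nefl, 2.25 for Nefm, 2.65 for Syt1, 2.21 for Nrxn3, 2.26 for Grin2b, 1.72 for Gria1, 2.39 for Meg3 and 2.39 for Rbfox3, on the log2 scale. Most alternatives lost the call for Meg3, which 11 of 30 kept. All mice of an age were processed together, so age and processing cannot be told apart in these differences.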

How the results depend on the processing

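At 7 months the number of the 36 genes called lower (13) was 17 with DESeq2, 11 with a filter at 50 and 15 with quality weights, and ranged from 6 to 14 when 1 mouse was left out. None was called higher by limma, edgeR or DESeq2 under any alternative run. At 10 months the number called lower (1) was 2 with DESeq2 and ranged from 0 to 2 when 1 mouse was left out, and the number called higher (0) was 1 with DESeq2 and 1 with quality weights, with a range of 0 to 1 over left-out mice. For the difference between the ages the number called higher (9) was 15 with DESeq2 and ranged from 6 to 14 over left-out mice. The ratio of summed levels at 7 months (0.508) was 0.611 without Meg3 and 0.483 to 0.550 over left-out mice. At 10 months it was 0.952 to 1.08. No called gene changed direction under any of these alternatives. The causes were not tested.

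The replicate number gave no sign of pairing the mice, though weak correlations between mice cannot exclude a pairing. Same-numbered mice had correlations of their deviations of -0.134 to 0.0995, and 1 of 9 mThy1-α-synuclein mice with a same-numbered partner correlated best with it. With the replicate block, 6 genes were called lower at 7 months and 4 higher for the difference between the ages, and Camk2a was called lower at 10 months. Levels near 10 normalized counts, as for Slc17a7, Gap43, Nefh and the Gad genes, limit what could be detected.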

Other observations

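Among 13260 genes tested at both ages and in no list, those whose log2 level followed the summed level of the 36 genes most closely across the 20 mice, with group means removed, were Sema3c (correlation 0.85), Ryr2 (0.85), A330076H08Rik (0.83), Egfl7 (0.82), Zfp462 (0.82), Nrgn (0.81), Ntm (0.79), Dgkb (0.79), Rgs17 (0.77) and Limch1 (0.75). Nrgn, which codes for neurogranin, and Ntm, a neuronal adhesion protein, are neuronal by background knowledge, Ryr2 codes for a calcium release channel found in neurons and heart, and Egfl7 is known from endothelial cells. The mice share their size factors with both quantities, and Meg3 weighs most in the sum.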
